A study of Mus musculus with 17 samples.

Results

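The genes described here are 9 established transcriptional targets of p53 in the mouse: Mdm2, Cdkn1a, Ccng1, Bax, Phlda3, Eda2r, Sesn2, Trp53inp1 and Zmat3. They were chosen by name, by a rule that uses no measured value but with earlier results of these data known, as a readout of a toxic response to oligonucleotides, and all 9 are among the 26131 genes of the table. Levels were measured in nuclei of the posterior brain of 17 female mice, 2.3 months old and homozygous for a human transferrin receptor knock-in (hTfR KI HOM), a genotype that treated and control animals shared. All animals received 4 intravenous doses, 1 a week, labelled as 24 days of treatment, and brains were collected 72 hours after the final one. The groups were saline (n = 4), Malat1 ASO, an antisense oligonucleotide against Malat1 given free at 2 mg per kg (n = 4), anti-TfR:Malat1 at 50 mg per kg (n = 6) and OTV:Malat1 at 50 mg per kg (n = 3). Both conjugates bind the transferrin receptor, the first through an antibody to it and OTV, an oligonucleotide transport vehicle, through an Fc domain engineered to do so.

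p53 is a transcription factor that is held low by the ubiquitin ligase Mdm2 and accumulates when DNA is damaged or when a cell is under other stress. p53 then switches on genes that stop the cell cycle, promote apoptosis or limit metabolic damage, and among them Mdm2 itself, which closes a negative feedback loop. In the brain these genes are used as markers of DNA damage and of injured neurons and glia, although most of them also have a basal level that does not need p53.

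p53 binds DNA at a pair of matching half-sites, and RefSeq promoter windows of the genome build of the data (GRCm38.p6, mm10), each running from 250 bases before to 50 bases after a gene start, were searched for them. Windows were given for 7 of the 9 genes, 8 windows in all, and Zmat3 and Trp53inp1 had none. The p53 consensus site, 20 bases with no spacer and at most 1 mismatch, was found in 2 of the 8 windows and in 29 of all 32851 windows (0.0883%). Because the consensus reads the same on both strands, 1 strand was searched. The 250 bases before the start are shown for both windows with a match, since they show the kind of sequence that defines a direct target. The site is in capitals, and each run is written 5′ to 3′ along the gene. The first, at chr17:29090729-29090978 on the plus strand, belongs to the upstream of 2 annotated starts of Cdkn1a, and its site begins 51 bases before that start. The window of the other start, at chr17:29093519-29093818, held neither a consensus site nor a half-site. The second, at chr11:40755287-40755536 on the minus strand, belongs to Ccng1, and its site begins 195 bases before the start.
Cdkn1a: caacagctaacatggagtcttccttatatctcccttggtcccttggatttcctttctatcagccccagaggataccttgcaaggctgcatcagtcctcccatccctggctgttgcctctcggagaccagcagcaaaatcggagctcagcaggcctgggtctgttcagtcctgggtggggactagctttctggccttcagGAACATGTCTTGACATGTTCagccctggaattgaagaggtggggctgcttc
Ccng1: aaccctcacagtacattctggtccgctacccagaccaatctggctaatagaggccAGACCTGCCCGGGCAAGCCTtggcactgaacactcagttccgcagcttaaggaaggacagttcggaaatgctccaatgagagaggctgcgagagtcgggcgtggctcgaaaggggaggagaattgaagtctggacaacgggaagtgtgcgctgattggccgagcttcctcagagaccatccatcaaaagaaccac
The same 2 sites are repeated with the 4 core bases of each half-site in capitals.
Cdkn1a site: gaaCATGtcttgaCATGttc
Ccng1 site: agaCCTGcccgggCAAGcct
A single exact half-site of 10 bases was present in 4 of the 8 windows, those of Bax, Mdm2, Ccng1 and Cdkn1a, and in 2745 (8.36%) of all windows. A match is a description of the letters, and a window without one says nothing about binding elsewhere in the gene.

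The data are droplet counts of RNA molecules (UMIs) in 284074 nuclei, with 55393588 to 79866411 UMIs and 13841 to 18365 nuclei per animal. The median was 2894 to 4052 UMIs per nucleus. Animals shared 10044 cell barcodes of 273792, and the authors' doublet calls, 12.4 to 20.03% of nuclei per animal, were left in. The deposited cell type labels gave 193268 neurons, 75282 oligodendrocytes, 8444 microglia, 4972 astrocytes, 1226 vascular cells, 657 perivascular macrophages and 225 nuclei named Glia, which were too few to test. Defining markers of each of the first 6 labels were present under it, but the neuron label also held 94.3% of cluster 13, of 7782 nuclei, in which 5 oligodendrocyte precursor markers summed to 13843 CPM (UMIs per 1e6 UMIs). Malat1, the target of the oligonucleotides, made up 4.65 to 8.09% of UMIs in saline animals and 3.34 to 4.35% in OTV:Malat1 animals. In oligodendrocytes it averaged 102140 ± 17495 CPM (SD) in saline and 16681 ± 2049 in OTV:Malat1, a log2 change of -2.79 (edgeR, adjusted p = 8.7e-08). A CPM is a share, so the CPM of every other gene rises somewhat when Malat1 falls. The edgeR changes given below were scaled between animals by TMM, which does not take its scale from a single abundant gene.

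In all nuclei together, none of the 9 p53 targets passed the edgeR test for a rise or a fall in any comparison. No other gene passed it either, Malat1 included, so the absence of calls says little about the members. Over the 17 animals Mdm2 was measured by 50750 UMIs, Zmat3 by 41583, Bax by 22856, Ccng1 by 16702 and Trp53inp1 by 11233. Sesn2, Phlda3, Cdkn1a and Eda2r were measured by 3263, 4613, 2594 and 905 UMIs. With edgeR's quasi-likelihood test, 0 of 9 passed an adjusted p of 0.05 against saline after Malat1 ASO, against 0% of 21375 genes tested. The count was 0 of 9 after anti-TfR:Malat1 (0% of genes) and 0 of 9 after OTV:Malat1 (0% of genes). It was again 0 of 9 for OTV:Malat1 against anti-TfR:Malat1 (0% of genes). In these 36 tests no unadjusted p was under 0.05, and DESeq2 also called 0. The background of genes with an unadjusted p under 0.05 was 0.604% for Malat1 ASO, 1.21% for anti-TfR:Malat1 and 1.11% for OTV:Malat1 against saline, and 1.61% between the conjugates. No member had groups that did not overlap, where 0.636, 0.351, 3.83 and 1.97% of genes did in the same order of comparisons. The 3 comparisons against saline use the same 4 saline animals. Nothing in the sources ties a sample to more than 1 animal, so each was taken as an animal, and p-values measure the spread between samples.

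Mdm2, the ligase that marks p53 for degradation, had 46.8, 49.0, 47.5 and 45.3 CPM in the saline animals. The 4 Malat1 ASO animals had 47.2, 50.2, 44.1 and 46.8 CPM. The 6 anti-TfR:Malat1 animals ran from 41.2 through a median of 44.1 to 46.7 CPM. The 3 OTV:Malat1 animals had 48.3, 55.8 and 40.3 CPM, so they held the highest and the lowest of all 17 and overlapped every other group. Mdm2 also had the narrowest intervals of the 9 genes. Over the 4 comparisons its log2 changes ran from -0.07 to 0.02, and their 95% intervals lay between 0.867-fold and 1.13-fold.

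Cdkn1a encodes p21, the cyclin-dependent kinase inhibitor that arrests the cell cycle. Cdkn1a was at 2.63, 2.91, 2.38 and 2.20 CPM in saline. In Malat1 ASO it was at 2.86, 2.75, 1.29 and 1.86 CPM. The anti-TfR:Malat1 animals spread from 1.08 through a median of 2.66 to 3.57 CPM, beyond the saline range on both sides. OTV:Malat1 animals had 2.13, 2.64 and 1.34 CPM, 2 of 3 below all saline animals. The log2 change of OTV:Malat1 against saline was -0.39 with a standard error of 0.38 (edgeR, adjusted p = 1.00), and its 95% interval reached from 0.442-fold to 1.32-fold.

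Ccng1, cyclin G1, works with protein phosphatase 2A on Mdm2. It was at 12.1, 16.4, 18.8 and 10.6 CPM in saline and at 15.3, 19.4 and 16.0 CPM in OTV:Malat1. The Malat1 ASO animals had 16.8, 14.3, 18.8 and 11.99 CPM, and the anti-TfR:Malat1 animals 9.74 to 18.6 with a median of 15.5. The 4 groups overlapped, and the largest of the 4 log2 changes was 0.15 (SE 0.20, edgeR adjusted p = 1.00), for OTV:Malat1 against saline.

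**Figure D1:**
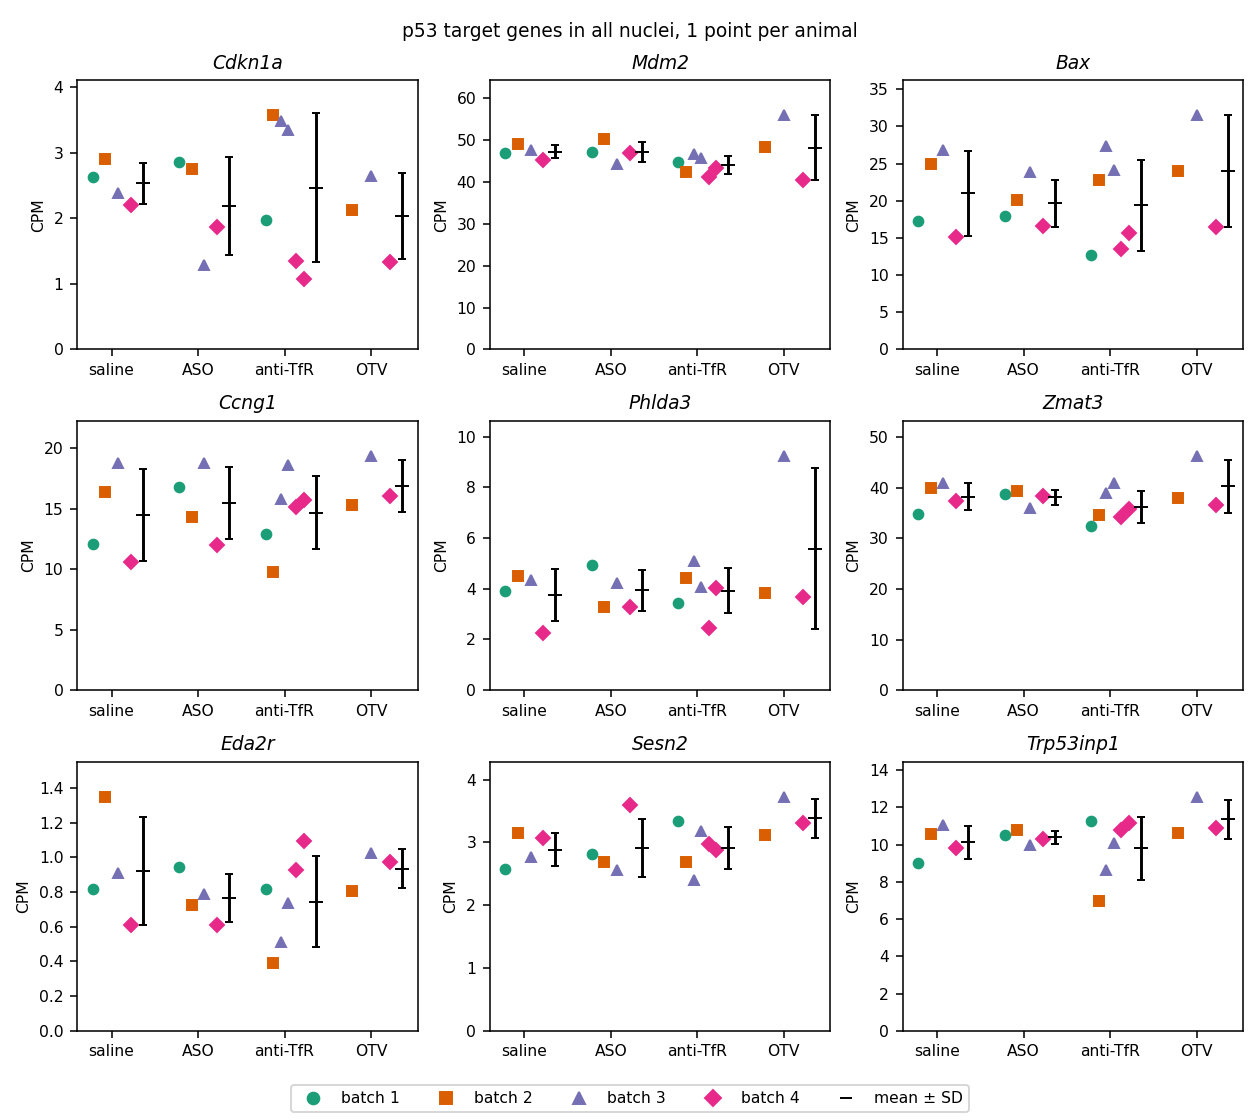
Level in CPM of each p53 target gene in all nuclei, 1 point per animal, by group, with colour and shape for the deposited batch and black bars for mean ± SD (n = 4, 4, 6 and 3). The 4 groups overlap for all 9 genes, Bax is highest in batch 3 within every group, and the highest Phlda3 value, 9.23 CPM, is OTV:Malat1 replicate 2.

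Bax forms the pores through which mitochondria release apoptotic factors. Its levels were 17.2, 24.9, 26.8 and 15.1 CPM in saline and 18.0, 20.05, 23.9 and 16.7 CPM in Malat1 ASO. Bax was at 12.7 to 27.4 CPM, with a median of 19.3, in anti-TfR:Malat1, and 24.0, 31.5 and 16.5 CPM in OTV:Malat1. In every group the animals of batch 3 were the highest. By an F-test of batch within the edgeR model, an analysis added after the data had been seen, Bax differed between batches (adjusted p = 1.6e-04). The batch means were 16.0, 22.9, 26.7 and 15.5 CPM for batches 1 to 4 (n = 3, 4, 5 and 5).

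Batch is the authors' deposited number, and what it marks is not given in the sources used here. OTV:Malat1 has no animal in batch 1 and each other group has at least 1 in every batch. Bax and Phlda3 were the 2 of 9 p53 targets that passed the batch test, against a background of 21.7% of the 21375 genes. Phlda3 had batch means of 4.09, 4.01, 5.40 and 3.13 CPM (edgeR, adjusted p = 0.047), and that of batch 3 includes OTV:Malat1 replicate 2 at 9.23 CPM. In neurons Bax and Phlda3 passed again, against 20% of genes, and in oligodendrocytes Bax passed, against 13.1% of genes. Within single batches the log2 ratio of Bax for OTV:Malat1 over saline ran from -0.05 to 0.23. With batch as a block the fitted change was 0.01 (SE 0.10), where without the block it was 0.11 (SE 0.27). Without OTV:Malat1 replicate 2, and with no block, it was -0.08 (SE 0.30).

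Phlda3 encodes a small protein that competes with Akt for membrane lipids and so dampens survival signalling. Saline animals had 3.92, 4.50, 4.36 and 2.24 CPM, and Malat1 ASO animals 4.91, 3.27, 4.24 and 3.29. The anti-TfR:Malat1 animals had 2.46 to 5.10 CPM with a median of 4.04. OTV:Malat1 animals had 3.83, 9.23 and 3.66 CPM. Replicate 2 thus stood above all other animals, and the other 2 lay inside the saline range. The log2 change against saline was 0.48 (SE 0.29, edgeR adjusted p = 1.00), the largest rise among the 36, with a 95% interval of 0.917-fold to 2.13-fold. Without replicate 2 it was -0.03, and with batch as a block 0.46 (SE 0.22). That animal was also the highest of the 17 for Phlda3 in neurons (6.25 CPM), oligodendrocytes (28.2 CPM) and microglia (22.3 CPM). In astrocytes it was not, at 11.53 CPM from 7 UMIs against 15.86 CPM in OTV:Malat1 replicate 3. Summed levels of 6 oligodendrocyte markers in neurons reached 651 CPM in OTV:Malat1 animals and at most 491 CPM in the other groups, and their part in the Phlda3 values was not tested.

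Eda2r, a receptor of the tumour necrosis factor receptor family, was the scarcest of the 9. Saline animals had 0.815, 1.35, 0.910 and 0.609 CPM, from 57, 96, 57 and 34 UMIs. OTV:Malat1 animals had 0.808, 1.02 and 0.9748 CPM, inside that range. The anti-TfR:Malat1 animals had 0.388 to 1.09 CPM with a median of 0.776, and the Malat1 ASO animals 0.943, 0.722, 0.790 and 0.610, so all groups overlapped. Its log2 changes ran from -0.29 to 0.24.

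The remaining members serve metabolism, autophagy and RNA control. Sesn2, a sestrin and leucine sensor that restrains mTORC1 when leucine is scarce, was at 2.57, 3.15, 2.76 and 3.06 CPM in saline. It was at 3.12, 3.73 and 3.30 CPM in OTV:Malat1, 2 of 3 above all saline animals (log2 change 0.16, SE 0.14, edgeR adjusted p = 1.00). Trp53inp1, which promotes autophagy and p53-dependent death, was at 8.99, 10.6, 11.03 and 9.83 CPM in saline and 10.6, 12.6 and 10.9 CPM in OTV:Malat1. The Malat1 ASO animals lay within 9.95 to 10.8 CPM for Trp53inp1 and 2.56 to 3.59 CPM for Sesn2. Zmat3, a zinc finger protein that binds RNA and acts on splicing, was at 34.9, 40.0, 41.0 and 37.3 CPM in saline and 38.1, 46.3 and 36.6 CPM in OTV:Malat1. The anti-TfR:Malat1 animals had medians of 2.92 CPM for Sesn2, 10.4 for Trp53inp1 and 35.3 for Zmat3, with ranges of 2.40 to 3.35, 6.95 to 11.2 and 32.5 to 41.1. All groups overlapped for each of these genes. The 95% intervals of Zmat3 over all comparisons lay between 0.867-fold and 1.17-fold.

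**Figure D2:**
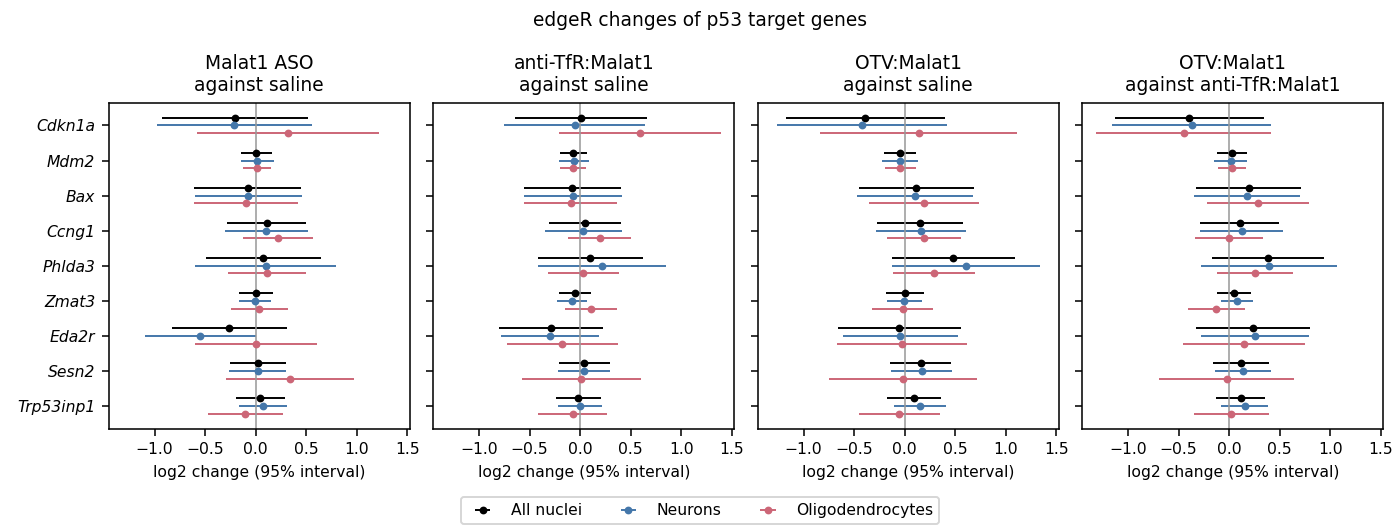
Fitted log2 change of each p53 target gene with its 95% interval (edgeR) in all nuclei, neurons and oligodendrocytes, 1 panel per comparison. Intervals are narrow for Mdm2 and Zmat3 and wide for Cdkn1a, Phlda3 and Eda2r, and no gene passed the threshold.

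The intervals set what the main model, which has no batch term, can show. With batch as a block the standard errors of Bax and Phlda3 given above were smaller, so these intervals are not the limit of the data. Across the 36 changes in all nuclei they spanned 0.442-fold to 2.13-fold at their widest. The narrow intervals of Mdm2 and Zmat3 lay between 0.867-fold and 1.17-fold, whereas those of Cdkn1a and Phlda3 include much larger changes. They rest on a spread estimated over all groups, and OTV:Malat1 animals alone ran from 40.3 to 55.8 CPM for Mdm2. For OTV:Malat1, changes outside 0.867-fold to 1.17-fold are thus not excluded. Without its replicate 2 the log2 change of Mdm2 against saline was -0.12 (SE 0.083). The direct comparison of the 2 conjugates at the same dose gave log2 differences, OTV:Malat1 less anti-TfR:Malat1, from -0.39 for Cdkn1a (0.457-fold to 1.27-fold) to 0.38 for Phlda3 (0.888-fold to 1.92-fold). Mdm2 differed by 0.02 (0.917-fold to 1.13-fold). Without OTV:Malat1 replicate 2 the differences were -0.58 for Cdkn1a, -0.13 for Phlda3 and -0.05 for Mdm2, so the sign for Phlda3 and Mdm2 rested on 1 animal. Malat1 ASO was given at another dose by weight, and its values stand beside those of the conjugates without a comparison.

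Genes that act on p53 itself did not pass the test, in comparisons where 0% of all 21375 genes did. Trp53, the p53 gene, was at 20.7 ± 2.65 CPM (SD) in OTV:Malat1 and 19.4 ± 1.89 in saline, with 18.6 ± 1.52 in anti-TfR:Malat1 and 18.6 ± 2.85 in Malat1 ASO. Mdm4, a partner of Mdm2 that inhibits p53, was at 133 ± 6.88, 129.6 ± 1.72, 127 ± 8.02 and 128 ± 3.16 CPM in the same order. Of 15 regulators of p53, 29 tested members of a list of 30 other p53 targets, and 13 other apoptosis genes, 0 passed the adjusted threshold in any of the 4 comparisons by edgeR or DESeq2, against 0% of genes in each by edgeR. After OTV:Malat1 against saline, 1 regulator (Trp73) and 1 apoptosis gene (Bcl2) had an unadjusted p under 0.05, and for OTV:Malat1 against anti-TfR:Malat1 it was Bcl2 alone. Over all genes the shares with such a p were 1.11% and 1.61%. Trp73, a p53 relative, was at 1.31 ± 0.208 CPM in OTV:Malat1 and 0.901 ± 0.0988 in saline, and Bcl2, which opposes Bax, at 53.7 ± 1.25 against 60.3 ± 2.58 CPM. The median log2 change in that comparison was 0.09 over the 9 members, -0.07 over the regulators, -0.01 over the other targets and 0.00 over all genes. The member median rested on 1 animal. Without OTV:Malat1 replicate 2 the 9 changes ran from -0.57 (Cdkn1a) to 0.13 (Sesn2), with Zmat3 in the middle at -0.06. Mdm2, Bax, Eda2r and Phlda3 were then also below 0, at -0.12 to -0.03, and Trp53inp1 and Ccng1 were at 0.06 and 0.09.

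Split by deposited label, the 9 genes again showed no change that passed the test. All 9 passed the filter on low counts in neurons and in oligodendrocytes, 5 in astrocytes, 4 in microglia and 0 in vascular cells and perivascular macrophages. Over the resulting 108 tests edgeR called 0, as did DESeq2, and 1 had an unadjusted p under 0.05. Background shares of called genes were 0% in neurons for all 4 comparisons. In oligodendrocytes they were 0% for Malat1 ASO and anti-TfR:Malat1 against saline, 0.0208% for OTV:Malat1 against saline and 0.00694% for OTV:Malat1 against anti-TfR:Malat1. In astrocytes they were 0.0117% for both comparisons of OTV:Malat1. In microglia OTV:Malat1 against saline gave 0.011%, and the other comparisons 0%. Malat1 itself was among the called genes in oligodendrocytes, astrocytes and microglia, and it was not called in neurons.

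The shares of genes with an unadjusted p under 0.05 or with groups that did not overlap are given for Malat1 ASO, anti-TfR:Malat1 and OTV:Malat1 against saline and then for the conjugates against each other. In neurons 0 of 9 members had such a p, against 0.627, 1.18, 1.13 and 2.12% of genes. In oligodendrocytes it was 0 of 9, against 1.03, 1.83, 2.59 and 2.94%. In astrocytes it was 0 of 5 that passed the filter, against 2.16, 3.17, 4.04 and 4.07%. In microglia it was 0 of 4 in each comparison with saline, against 2.26, 2.92 and 4.06%, and 1 of 4 between the conjugates. Groups that did not overlap made up 0.66, 0.364, 3.79 and 2.53% of genes in neurons and 0.929, 0.541, 11.8 and 3.97% in oligodendrocytes. In astrocytes they made up 1.64, 0.761, 5.7 and 2.04% and in microglia 1.98, 0.593, 5.03 and 1.74%, with 0 members among them in both labels.

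The single low p-value belonged to Bax in microglia. OTV:Malat1 animals had 41.5, 63.3 and 48.8 CPM (18, 34 and 16 UMIs). The anti-TfR:Malat1 animals had 18.4 to 50.5 CPM with a median of 24.9, and the saline animals 28.2, 36.5, 49.1 and 23.7 CPM. So 1 of 3 OTV:Malat1 animals lay above every anti-TfR:Malat1 animal. The log2 difference between the 2 conjugates was 0.84 (SE 0.28, edgeR adjusted p = 0.979), in a label where 3.64% of genes had an unadjusted p under 0.05. It was 0.77 with batch as a block and 0.64, with an unadjusted p above 0.05, without OTV:Malat1 replicate 2.

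Groups did not overlap in 3 of the 144 tests, all 3 with OTV:Malat1 on the high side and none past the threshold. Sesn2 in neurons was at 3.30, 3.89 and 3.43 CPM in OTV:Malat1 against 2.83, 3.25, 2.89 and 3.09 in saline (log2 change 0.17, SE 0.14, edgeR adjusted p = 1.00), where 3.79% of genes did not overlap. Trp53inp1 in neurons was at 9.33, 10.8 and 9.44 CPM in OTV:Malat1 against 6.17 to 9.24, median 8.77, in anti-TfR:Malat1 (log2 difference 0.15), with a background of 2.53%. Mdm2 in oligodendrocytes was at 95.3, 107 and 93.4 CPM against 85.2 to 92.5, median 88.3 (log2 difference 0.03), with a background of 3.97%. Without OTV:Malat1 replicate 2 the fitted value was -0.01 for this Mdm2 comparison, 0.14 for Sesn2 and 0.13 for Trp53inp1. With Malat1 left out of the total, Sesn2 in neurons and Mdm2 in oligodendrocytes overlapped, Trp53inp1 in neurons still did not, and Eda2r in neurons became separate, at 0.193 to 0.296 CPM in Malat1 ASO and 0.297 to 0.472 in saline. The shares of genes that did not overlap were then 2.71% for OTV:Malat1 and 0.718% for Malat1 ASO against saline and 1.55% between the conjugates in neurons, and 1.62% between the conjugates in oligodendrocytes.

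Between neurons and oligodendrocytes the changes themselves were also compared, by exact two-sided permutation of animals on the difference of log2(CPM + 1) between the 2 labels within an animal, added after the data had been seen. Of 36 such tests 2 had p under 0.05 and 0 passed after Benjamini-Hochberg adjustment over the 36 alone (lowest adjusted p = 0.514). The share over all genes was not computed, so the count of 2 has no background beside it. Malat1 stayed in the totals, and after OTV:Malat1 it fell more in oligodendrocytes than in neurons. That alone raises the difference, oligodendrocytes less neurons, of other genes in those animals. The smallest p that the animals allow is 0.0048, for anti-TfR:Malat1 against saline, and 0.012 or more in the other comparisons. A single test at that smallest p would have an adjusted p of 0.171, so no single test could pass. The lowest belonged to Zmat3 for anti-TfR:Malat1 against saline, with a difference of 0.27 on that scale (exact p = 0.014).

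Levels of the 9 genes were also compared between cell types. These are CPM, shares of the UMIs of a label, and neuron nuclei carried more UMIs each than nuclei of the other labels. Counts per nucleus can therefore be ordered otherwise, and they were not compared. In the order of mean level, 18 of 45 neighbouring pairs of labels differed by an exact two-sided sign-flip permutation within animals, with Benjamini-Hochberg adjustment over the 45 alone. With adjustment over the pairs of all 21375 genes, run after the data had been seen and used for the adjusted p-values below, 15 of 45 passed, against 30.6% of the 106875 pairs. That share is near the background, so the count says nothing particular to these genes. In 8 of the 18 every animal had a UMI of the gene in both labels. In the other 10 at least 1 animal was at 0 in a label, and where the zeros lie in the lower label they enlarge the difference on the log2(CPM + 1) scale. Cdkn1a had 1 pair among the 18, microglia over perivascular macrophages, with means of 3.74 and 3.42 CPM and 14 of 17 animals at 0 in the latter. Zmat3 in microglia and perivascular macrophages likewise had means of 14.8 and 14.7 CPM and a log2 difference of 1.87, with 10 of 17 animals at 0 in the latter. Mdm2 was highest in oligodendrocytes, at 91.3 ± 5.49 CPM (SD, n = 17), then in microglia at 76.3 ± 11.5, and lowest in neurons at 40.9 ± 3.27. The step from astrocytes down to neurons did not pass over all genes (exact permutation adjusted p = 0.061). Oligodendrocytes exceeded microglia in 17 of 17 animals (exact permutation adjusted p = 1.7e-04). Perivascular macrophages, vascular cells and astrocytes lay between microglia and neurons, and their order was not resolved beyond the spread.

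Phlda3 and Eda2r were the most skewed to oligodendrocytes. Phlda3 averaged 16.98 CPM in oligodendrocytes and 2.66 CPM in neurons. Between them lay perivascular macrophages, vascular cells, microglia and astrocytes, from 11.7 down to 7.25 CPM, with no resolved order. Eda2r averaged 5.33 CPM in oligodendrocytes, 3.58 CPM in vascular cells, from 6 UMIs, 2.35 CPM in astrocytes and 0.309 CPM in neurons. The order of vascular cells and astrocytes was not resolved. No UMI of Eda2r was counted in microglia, 0 of 9095983, which allows up to 0.330 CPM (3 counts, counting error only). That limit lies above the neuron mean, so although the pair is 1 of the 18 by permutation, a level below that of neurons is not detectable at this depth. Free RNA in droplets can add UMIs of other cell types, and for reference pooled neurons carried the myelin transcripts Mbp and Mog at 3.09 and 2.49% of their oligodendrocyte level. Eda2r in neurons stood at 5.71% of its oligodendrocyte level and Phlda3 at 15.6%. Without cluster 13, where Eda2r was at 3.74 CPM, the shares were 4.67% for Eda2r, 15.2% for Phlda3, 3.12% for Mbp and 2.51% for Mog, an analysis added after the data had been seen. The 5 precursor markers also summed to 9680 CPM in cluster 19 and 6239 CPM in cluster 17, which were not left out. In single neuronal clusters Eda2r was as low as 0.0529 CPM in cluster 8 and 0.133 CPM in cluster 3, so in many neurons it was not told apart from free RNA.

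Zmat3 was, unlike Phlda3 and Eda2r, higher in neurons than in oligodendrocytes and was highest in neurons, at 40.4 ± 3.73 CPM, then in astrocytes at 31.6, vascular cells at 20.05, oligodendrocytes at 18.6, microglia at 14.8 and perivascular macrophages at 14.7. Neurons exceeded astrocytes in 15 of 17 animals (exact permutation adjusted p = 0.0017). Vascular cells exceeded oligodendrocytes in only 8 of 17 animals, and that order was not resolved (exact permutation adjusted p = 0.182). The step from microglia to perivascular macrophages did not pass over all genes either (exact permutation adjusted p = 0.0523). Pooled oligodendrocytes held Zmat3 at 45.4% of the neuron level, against 5.37 and 4.12% for the neuronal transcripts Meg3 and Rbfox3. Sesn2 was also higher in neurons than in oligodendrocytes, 3.12 against 1.51 CPM, in 17 of 17 animals (exact permutation adjusted p = 1.7e-04). Its means in the 4 rarer labels, 4.12 to 7.18 CPM, rested on 5 to 48 UMIs each.

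Trp53inp1 was highest in vascular cells and astrocytes, at 51.0 and 42.8 CPM, which were not resolved from each other. Oligodendrocytes followed at 19.4 and microglia at 19.3, and neurons had 8.75 CPM. Astrocytes exceeded oligodendrocytes in 16 of 17 animals (exact permutation adjusted p = 2.9e-04). Ccng1 varied least between labels. Bax ran from 19.7 CPM in neurons to 47.3 in vascular cells, and Ccng1 from 14.7 in neurons to 24.3 in perivascular macrophages. For both, the pair of oligodendrocytes above neurons was the one neighbouring pair that passed. Trp53 itself averaged 67.6 ± 13.6 CPM in microglia, 51.0 ± 4.74 in oligodendrocytes, 33.3 ± 8.55 in astrocytes and 14.9 ± 1.23 in neurons (SD).

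**Figure D3:**
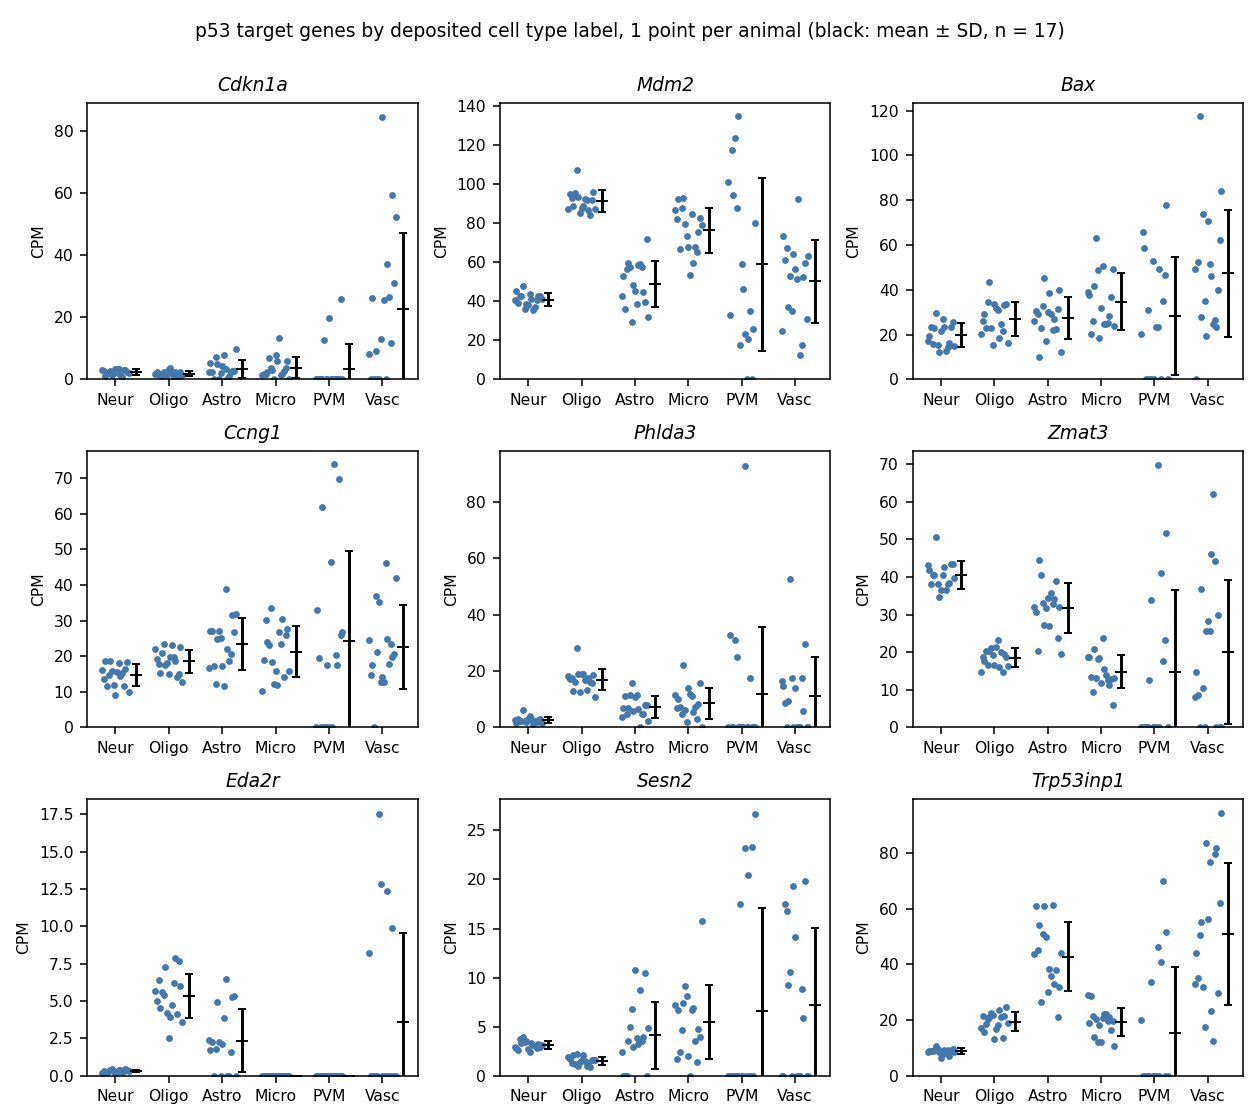
Level in CPM of each p53 target gene by deposited label (neurons, oligodendrocytes, astrocytes, microglia, perivascular macrophages, vascular cells), 1 point per animal, with black bars for mean ± SD (n = 17) that are not drawn below 0. Mdm2, Phlda3 and Eda2r are high in oligodendrocytes and Zmat3 is high in neurons, while the wide scatter on the right of each panel comes from labels with few nuclei.

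Cdkn1a had its highest mean in vascular cells, 22.7 CPM over all animals, from 37 UMIs in 1226 nuclei, against 1.87 to 3.74 CPM in the other labels. The step from vascular cells to microglia did not pass the test (12 of 17 animals, exact permutation adjusted p = 0.127), and 5 animals had no Cdkn1a UMI in vascular cells. By animal the UMIs were 1, 0 and 0 in OTV:Malat1 and 2, 6, 3 and 5 in saline. Malat1 ASO animals had 1, 0, 3 and 0 UMIs and anti-TfR:Malat1 animals 0 to 6. The sums were 1 UMI in 209 nuclei for OTV:Malat1, 16 in 344 for saline, 4 in 276 for Malat1 ASO and 16 in 397 for anti-TfR:Malat1. OTV:Malat1 was thus below all saline animals, at 0 to 9.22 against 11.7 to 59.5 CPM, where 6.16% of filtered genes did not overlap, with a ratio of pooled rates of 0.111 (95% counting interval 0.00266 to 0.717, exact, counting error only). Against saline the ratio was 0.319 (0.0776 to 0.989) for Malat1 ASO and 0.857 (0.401 to 1.83) for anti-TfR:Malat1. For OTV:Malat1 over anti-TfR:Malat1 it was 0.130 (0.0031 to 0.837). None of these intervals holds the spread between animals. They were computed for this gene and label alone, where its counts stood out, so they are not a test of a change. Cdkn1a did not pass the filter in that label. Without a filter the edgeR fit of OTV:Malat1 against saline gave an adjusted p of 0.807, and 767 of 18668 genes had an unadjusted p under 0.05 in that comparison. Summed endothelial markers ran from 1064 to 4783 CPM in saline and from 1684 to 3645 CPM in OTV:Malat1, and mural markers from 1542 to 2152 and from 1912 to 3275 CPM. Among markers of other cells under this label, those of oligodendrocytes and of their precursors separated saline from OTV:Malat1. Those of neurons, astrocytes, microglia, perivascular macrophages and ependymal cells overlapped between the same groups. The 6 oligodendrocyte markers summed to 858 to 1309 CPM in saline and 1456 to 2102 in OTV:Malat1, and the 5 precursor markers to 294 to 368 and 525 to 697 CPM. The part of any of these markers in the Cdkn1a counts was not tested.

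Mdm2 in perivascular macrophages, which also failed the filter and was singled out after its values were seen, was high in OTV:Malat1. Those animals had 4, 7 and 4 UMIs from 32, 63 and 31 nuclei (124, 87.9 and 135 CPM). Saline animals had 2, 0, 1 and 3 UMIs (35.1, 0, 25.9 and 80.0 CPM), and anti-TfR:Malat1 animals 0 to 3 UMIs (0 to 59.2 CPM). OTV:Malat1 overlapped neither group, where 4.51 and 2.68% of filtered genes did not, but lay within the 32.8 to 117 CPM of Malat1 ASO for 1 of 3 animals. Oligodendrocyte markers under this label summed to 1552 to 3429 CPM in OTV:Malat1, 720 to 1876 in saline and 631 to 2192 in anti-TfR:Malat1, and Mdm2 is highest in oligodendrocytes. The part of those markers in the Mdm2 counts was not tested.

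A fit without a filter added 100 tests of members, of which 9 had an unadjusted p under 0.05 and 0 passed after adjustment (edgeR, lowest adjusted p = 0.800). Over all genes the share with such a p was 2.82 to 4.40% across the 4 labels and 4 comparisons. The lowest p of the 100 belonged to Zmat3 in vascular cells, for anti-TfR:Malat1 against saline. It was at 25.7 to 61.9 CPM in anti-TfR:Malat1, from 2 to 5 UMIs per animal, and at 0, 29.8, 0 and 0 CPM in saline (log2 change 2.23, SE 0.80, edgeR adjusted p = 0.872). The saline animal with a UMI lay inside the anti-TfR:Malat1 range.

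Among the 20 deposited clusters the 9 genes did not share 1 pattern. Cdkn1a peaked in cluster 3, almost wholly labelled neurons, at 5.87 CPM pooled over animals (662 UMIs). That cluster held 7.41% of nuclei and 25.5% of all Cdkn1a UMIs. Its nuclei carried more UMIs each than the average nucleus, so these shares overstate the enrichment. It was the highest cluster in 7 of 17 animals. Cdkn1a in it averaged 5.61 ± 3.49 CPM in OTV:Malat1 and 6.19 ± 2.37 in saline, with 5.84 ± 3.17 in anti-TfR:Malat1 and 5.97 ± 3.59 in Malat1 ASO (SD). By batch it averaged 8.43, 7.41, 5.96 and 3.16 CPM for batches 1 to 4. Nuclei with 3 or more Cdkn1a UMIs numbered 14, all labelled neurons and 10 of them in cluster 3, and they came from saline (6), Malat1 ASO (3) and anti-TfR:Malat1 (5) animals, with 0 from OTV:Malat1. The nuclei examined numbered 65218, 65548, 101000 and 52308 in that order of groups. By batch the 14 were 3, 8 and 3 from batches 1 to 3 and 0 from batch 4, and 3 of them were deposited doublets. OTV:Malat1 has no animal in batch 1.

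Phlda3 and Eda2r both had their highest pooled level in cluster 2, an oligodendrocyte cluster, at 18.9 and 6.21 CPM, above the next cluster, also of oligodendrocytes, in 12 of 17 animals for each. Mdm2 peaked in cluster 15, another oligodendrocyte cluster, at 106 CPM, above the next cluster in 16 of 17 animals. In cluster 13, rich in oligodendrocyte precursor markers, Eda2r was at 3.74 CPM, against 0.133 CPM in cluster 3. Trp53inp1 peaked in cluster 14, mostly astrocytes, at 37.2 CPM, in 14 of 17 animals the highest cluster. Zmat3 had its highest pooled level in cluster 4, at 50.2 CPM, and Ccng1 in cluster 8, at 26.2 CPM, both neuronal, but each was the highest cluster in 6 of 17 animals, and the next for Zmat3 was at 48.95 CPM. Bax and Sesn2 peaked in the microglial cluster 11, at 36.8 and 5.52 CPM, and cluster 11 exceeded the next cluster in 12 of 17 animals for Bax. For Sesn2 it rested on 56 UMIs and exceeded the next, at 5.06 CPM, in 8 of 17 animals, so that order was not resolved.

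**Figure D4:**
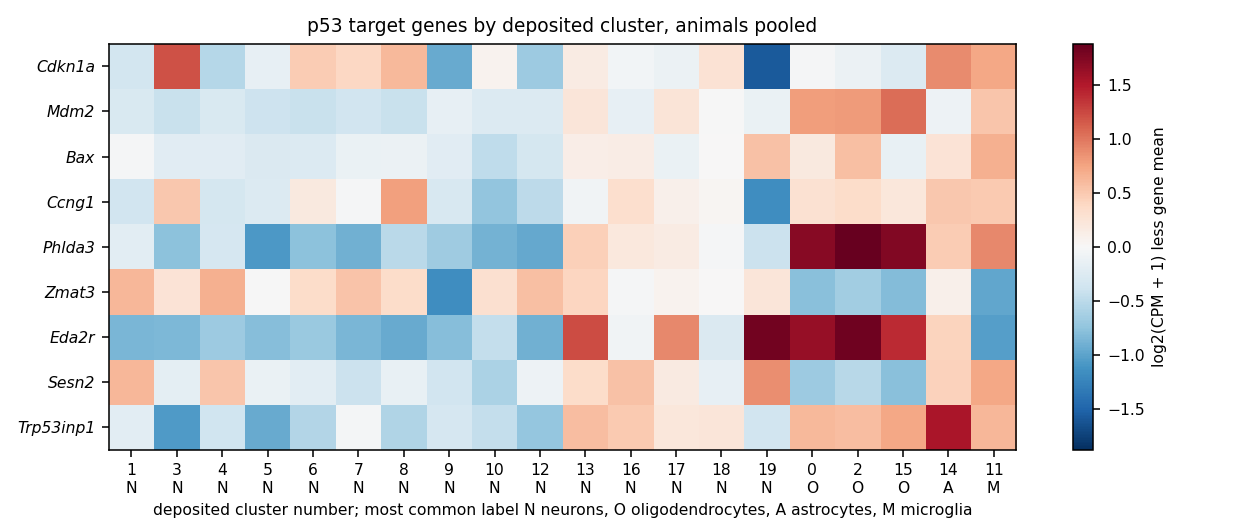
Level of each p53 target gene in each of the 20 deposited clusters, as log2(CPM + 1) less the gene's mean over clusters, animals pooled (red above, blue below), with the most common label under each cluster number. Phlda3 and Eda2r are red over the oligodendrocyte clusters 0, 2 and 15, Zmat3 is blue there, and Cdkn1a is red in cluster 3.

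Over those 20 clusters the closest pair within the 9 was Mdm2 and Phlda3 (Pearson r = 0.94 of log2(CPM + 1)), and the most opposed was Mdm2 and Zmat3 (r = -0.70). These are descriptions over clusters that share animals and differ in depth. Among 15844 genes, the pattern most like Phlda3 was that of Mmadhc (r = 0.98) and then Cryab (r = 0.98), and the nearest to Eda2r were Aebp1 (r = 0.96) and Nkx2-2 (r = 0.96). Mdm2 was nearest to Taldo1 (r = 0.97) and Golga7 (r = 0.97), Zmat3 to 9630014M24Rik (r = 0.95) and Gabra3 (r = 0.94), and Cdkn1a to Cwc25 (r = 0.88) and Gadd45b (r = 0.86). Bax was nearest to Prelid1 (r = 0.95) and Mrps24 (r = 0.95), and Ccng1 to Ppm1k (r = 0.89) and Kat14 (r = 0.84). Sesn2 was nearest to Rfx5 (r = 0.90) and Hykk (r = 0.89), and Trp53inp1 to Rab9 (r = 0.94) and Zbtb5 (r = 0.94).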

How the data were processed

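The authors deposited a matrix of UMI counts over 26131 genes and 284074 nuclei, with a table of sample, label, cluster, batch and doublet calls per nucleus. The submitters' processing notes name Cell Ranger 6.0.1, Seurat 4 and build mm10, and what batch means is not stated there. The sum of every nucleus was checked against the deposited total and equalled it. The authors also deposited the prediction score of each label, a fraction, which was not used. For each animal, UMIs were added up over its nuclei and over each label with 20 or more nuclei. Genes were filtered by filterByExpr and all 17 animals were fitted in 1 model by edgeR 4.0.16 (R 4.3.3, TMM, glmQLFit, glmQLFTest), with Benjamini-Hochberg adjustment across every gene in the fit and a threshold of 0.05. The fit was tested on simulated data. DESeq2 1.42.0 was an alternative. CPM was each count over the sum of its animal and label, with no pseudocount, and log2(CPM + 1) was used for comparisons between labels. The 9 genes, Malat1, Trp53 and Mdm4 are always named, genes of the other lists only past the threshold, and 2 genes per member by likeness over clusters. Trp73 and Bcl2 were named after their values had been seen. The members and lists were chosen with earlier results of these data known. Alternatives were other scaling, filters, doublets or shallow nuclei left out, blocks and each animal left out.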

Additional observations from a re-analysis of the deposited data

Results flagged for a closer look

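In 2 of 81 sets of values tested (a gene, a label and a group of 4 to 10 animals), an animal lay apart from the others. The gap was large against the group's range, not always against the level, and chance alone gives about 1 in 20. OTV:Malat1, with 3 animals, was not among the sets, so its replicate 2 could not be flagged. Trp53inp1 in neurons was at 8.58 CPM in Malat1 ASO replicate 1, with the other 3 animals at 8.96 to 9.01 CPM, so the gap was 0.894 of the group's range. Sesn2 in oligodendrocytes was at 0.844 CPM in saline replicate 1, from 8 UMIs, with the other 3 at 1.55 to 1.63 CPM, a gap of 0.907 of the range.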

How the results depend on the processing

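The count of members called was 0 in all 220 alternatives of it, and the lowest adjusted p over 4172 member tests was 0.702. With DESeq2, the replicate block or batch as a block, at most 3 of all genes were called in any comparison and label. Without a filter, in the rarer labels, the most were 14 rises and 5 falls of 18668 genes, in vascular cells. A count of 0 members is thus near the background and says little about these genes. Of 4064 member changes under an alternative, 265 had the other sign, 0 of them called. Where replicate numbers were used as a replicate block, 0 members were called, the lowest p being 0.0087 (Cdkn1a in neurons, OTV:Malat1 against anti-TfR:Malat1, log2 difference -0.80, adjusted p = 0.970). For Malat1 ASO and saline each number is also 1 deposited batch, and deviations of same-numbered animals correlated at 0.46, -0.05, 0.66 and 0.59. In the other comparisons some or all numbers join different batches, with correlations of -0.44 to 0.52. No comparison had every correlation above 0.1, so the numbers were not taken as pairs. Mean levels in saline moved with the denominator. With Malat1 left out of the total Mdm2 was at 50.7 and Zmat3 at 41.1 CPM. As a mean of CPM over nuclei, Mdm2 was at 57.7, Phlda3 at 6.98, Zmat3 at 32.8, Eda2r at 2.14 and Trp53inp1 at 13.2 CPM. With saline animals only, 0 neighbouring label pairs passed in place of 18, since 4 animals cannot give an exact p under 0.125. Perivascular macrophages could not be fitted with 50 or more nuclei per animal, with nuclei of 1000 or more UMIs or with labels equal to the most common of their cluster, nor vascular cells with the last. Depth limits the rarer labels. Cdkn1a, Phlda3, Eda2r and Sesn2 failed the filter on low counts in astrocytes and microglia, Zmat3 also in microglia, and all 9 genes in vascular cells and perivascular macrophages.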
